A study of Mus musculus with 9 samples.

Results

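The nuclear genes of the mitochondrial respiratory chain and ATP synthase were followed in mouse germinal center B cells. Every gene symbol beginning with Nduf, Uqcr, Atp5 or Cox4 to Cox8, and the symbols Sdha, Sdhb, Sdhc, Sdhd and Cyc1, were taken from the 9 deposited gene tables. This gave 91 symbols, each at 1 locus and none with a failed estimate. Of these, 84 reached an FPKM of 1 in 3 or more of the 9 libraries and are called the members; they are 84 of the 10004 genes tested. FPKM counts sequenced fragments for each kilobase of a transcript, relative to the size of the library. By protein, 36 members belong to complex I, 4 to complex II, 9 to complex III, 12 to complex IV (among them Ndufa4, which was first assigned to complex I) and 15 to complex V. The symbol prefixes also took 8 genes that encode no subunit: the complex I assembly factors Ndufaf1, Ndufaf2, Ndufaf3, Ndufaf4 and Atp5sl, the coupling factor Atp5s, the supercomplex factor Cox7a2l, and Cox4nb, an endoplasmic reticulum membrane complex subunit named for its neighbour Cox4i1.

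C57BL/6 mice received B cells of 2 genotypes in equal parts, were immunized with the hapten conjugate NP-CGG in alum, were given tamoxifen by mouth on days 7 to 9, and their spleen germinal center B cells (B220+ NP+ GL7+ CD38-) were sorted on day 12. The LZ group (light zone, CD86 high and CXCR4 low) and the DZ group (dark zone, CD86 low and CXCR4 high) are wild-type cells, labelled Foxo1(+/+) and CD45.1/1. The third group, called Foxo1-deficient here, is labelled Foxo1(f/f) and CD45.1/2 and was sorted as whole germinal center cells. All 3 groups carried ERT2cre(KI/+), a recombinase that tamoxifen activates, and B1-8hi(KI/+), an antigen receptor that binds NP, and all received the drug. Each group has 3 libraries. Zone gate and genotype change together between the Foxo1-deficient cells and either wild-type group, so their effects cannot be told apart. The genotype label of the Foxo1(f/f) cells conflicts with their stated CD45.2-negative gate. Nothing in the labels says that the replicates are separate animals, so each p-value reflects the spread of these samples only, and that spread may be technical.

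The respiratory chain passes electrons from NADH (complex I) or succinate (complex II) through ubiquinone to complex III, then through cytochrome c to complex IV, which reduces oxygen. Complexes I, III and IV pump protons across the inner mitochondrial membrane, and complex V, the ATP synthase, uses their return to make ATP. A few core subunits are encoded by mitochondrial DNA and the rest, including every complex II subunit, by nuclear genes. Germinal center B cells divide rapidly in the dark zone and compete for antigen and T cell help in the light zone, and oxidative phosphorylation is a recognised energy source of these cells.

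Foxo1, the deleted gene, was listed at 14.8, 18.7 and 22.1 FPKM in LZ, 24.5, 19.5 and 19.1 in DZ, and 3.01, 1.79 and 0.81 in the Foxo1-deficient libraries. Of the sort genes, Cd86 averaged 51.7 ± 7.01 FPKM in LZ, 15.8 ± 2.97 in DZ and 56.5 ± 2.06 in the Foxo1-deficient cells, and Cxcr4 averaged 33.3 ± 4.48, 72.5 ± 11.2 and 22.3 ± 4.10 (SD, n = 3 each). Germinal center B cell markers summed to 1502 to 2349 FPKM in every library. Summed macrophage, monocyte and dendritic markers lay between 2.14 and 6.63 FPKM in LZ, 0.655 and 2.79 in DZ, and 91.5 and 219.5 in the Foxo1-deficient libraries. Neutrophil markers were at 0 in LZ, at most 2.54 in DZ and between 73.6 and 128.1 in the Foxo1-deficient libraries, and erythroid markers between 21.9 and 44.4, 12.9 and 21.7, and 165.7 and 544.4. Plasma cell markers summed to between 154.5 and 173.9 FPKM in LZ, 212.7 and 319.9 in DZ, and 245.9 and 368.5 in the Foxo1-deficient libraries, and T cell markers to between 49.0 and 64.1, 42.7 and 54.6, and 25.2 and 35.3. Of these, the plasma cell gene Igj passed the test as higher than in LZ in both other groups. Slamf7, of the plasma cell list, passed as lower in the Foxo1-deficient cells than in DZ. Igj was the largest part of the plasma cell sums, at means of 88.8, 200.4 and 253.6 FPKM in LZ, DZ and Foxo1-deficient cells. In the same order Xbp1 averaged 41.9, 44.95 and 47.9, Slamf7 22.3, 27.7 and 13.7, and Irf4 9.75, 3.22 and 6.86 FPKM. Prdm1, Sdc1 and Tnfrsf17 averaged at most 1.2 FPKM in any group, so the plasma cell sums say little about plasma cell content. Cd2, of the T cell list, passed as lower in the Foxo1-deficient cells than in either zone. Stromal markers reached at most 10.8 FPKM in any library. Cd2 and Lck made up nearly all of the T cell sums. Cd2 averaged 30.0, 32.3 and 9.93 FPKM in LZ, DZ and Foxo1-deficient cells, and Lck 26.8, 14.5 and 19.0. The T cell genes Cd3e, Cd3g and Cd4 were listed at 0 in all 9 libraries, so these sums say little about T cell content. The macrophage genes C1qb and Cd14, the granule genes Mpo and Elane and the platelet genes Pf4 and Ppbp were listed at 0 in all Foxo1-deficient libraries. The part of these other cells in the values below, the zone comparison included, was not tested. Fragments implied by the Cufflinks intervals summed over the tested genes to 1753867 in Foxo1-deficient replicate 3, the fewest, and to 2454657 in Foxo1-deficient replicate 1, the most. Foxo1-deficient replicate 3 listed 218 of 8923 well-covered genes at 0, against 6 to 62 in the others, so a value of 0 can be a failed estimate.

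The members were abundant. Their median level, as the mean over the 9 libraries, was 48.4 FPKM, against 7.23 FPKM for all tested genes, and 76 of 84 members stood above that tested-gene median. The median level per subunit was 37.4 FPKM in complex I, 35.5 in complex II, 69.2 in complex III, 134.4 in complex IV and 155.3 in complex V, while the 8 other genes had a median of 6.85. Cox4i1, the main isoform of a complex IV subunit that binds ATP, was highest at a mean of 280.2 FPKM. Atp5e and Atp5b, the epsilon and the catalytic beta subunits of the ATP synthase head, followed at 246.8 and 241.4 FPKM. In complex I the highest were the accessory subunits Ndufa3 at 112.7 and Ndufa2 at 64.7 FPKM, and in complex III the small subunits Uqcrh at 135.5 and Uqcr10 at 91.7 FPKM.

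The order of genes by level carries a limit that was larger, at the median, in members with shorter transcripts. Each deposited FPKM comes with a Cufflinks confidence interval, and in 45 of 84 members (53.6%) the FPKM was more than 1.2 times the centre of that interval, against 4.0% of all tested genes. Among the 80 members whose FPKM and lower interval bound were above 0 in every library, the ratio had a median of 1.46 in the 40 with shorter transcripts (median length 553 bases) and of 1.10 in the 40 with longer ones (1016 bases). Atp5k, the e subunit of the ATP synthase membrane part, had the highest ratio at 2.87 and was the fifth gene by FPKM but number 22 by interval centre. On the interval centres the median levels were 29.2 in complex I, 33.5 in complex II, 49.6 in complex III, 89.7 in complex IV and 93.0 in complex V, so the order of complexes I and II turned round and that of the others did not. Single genes departed from the pattern by length: Ndufa2, at 572 bases, had a ratio of 1.0 and Ndufb2, at 2413 bases, of 1.51. What sets the ratio was not tested. It was nearly constant across libraries for most members.

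**Figure D1:**
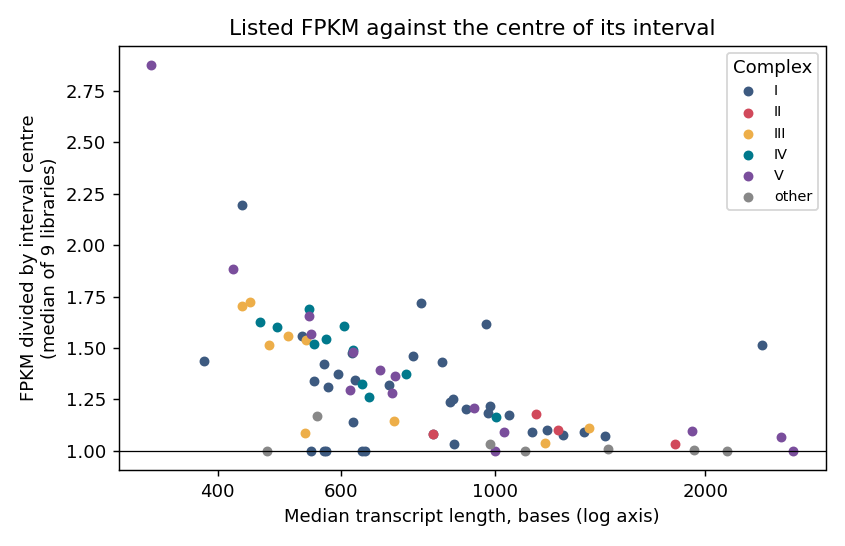
Each point is 1 of the members, placed by the median length in bases of its protein-coding transcripts (log axis) and by its FPKM divided by the centre of its Cufflinks interval (median over 9 libraries), coloured by complex. Short transcripts reach the highest ratios, up to 2.87 for Atp5k, and many long ones stay near 1.

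Complexes I, II, IV and V took a larger share of all FPKM in DZ than in LZ or in Foxo1-deficient cells, with no single member past the test. Summed over the 84 members, the FPKM was 6551, 6396 and 6124 in LZ 1 to 3, 7252, 7006 and 5557 in DZ 1 to 3, and 6009, 5731 and 5110 in Foxo1-deficient 1 to 3. DZ replicate 3 was below every LZ library on this sum, and its total over all entries was also the lowest of the 9. As a share of all FPKM in a library, the members took 2.017%, 1.833% and 1.971% in LZ, 2.413%, 2.255% and 2.225% in DZ, and 1.926%, 1.830% and 1.569% in the Foxo1-deficient libraries. On this scale every DZ library was above all 6 others, for the sum and for complexes I, II, IV and V, but not for complex III. The LZ and Foxo1-deficient libraries overlapped on the same scale for the sum and for complexes I, III, IV and V. In complex II every Foxo1-deficient library was below every LZ one. The total behind these shares includes entries that were not tested. Tested genes held 95.0%, 83.8% and 93.8% of all FPKM in LZ and 93.8%, 89.4% and 95.3% in DZ. In the Foxo1-deficient libraries they held 96.0%, 88.5% and 85.9%. Shares of tested-gene FPKM alone were not taken, so the overlaps given above hold only for shares of all FPKM. In bulk samples fewer cells of a type and less RNA per cell cannot be told apart.

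**Figure D2:**
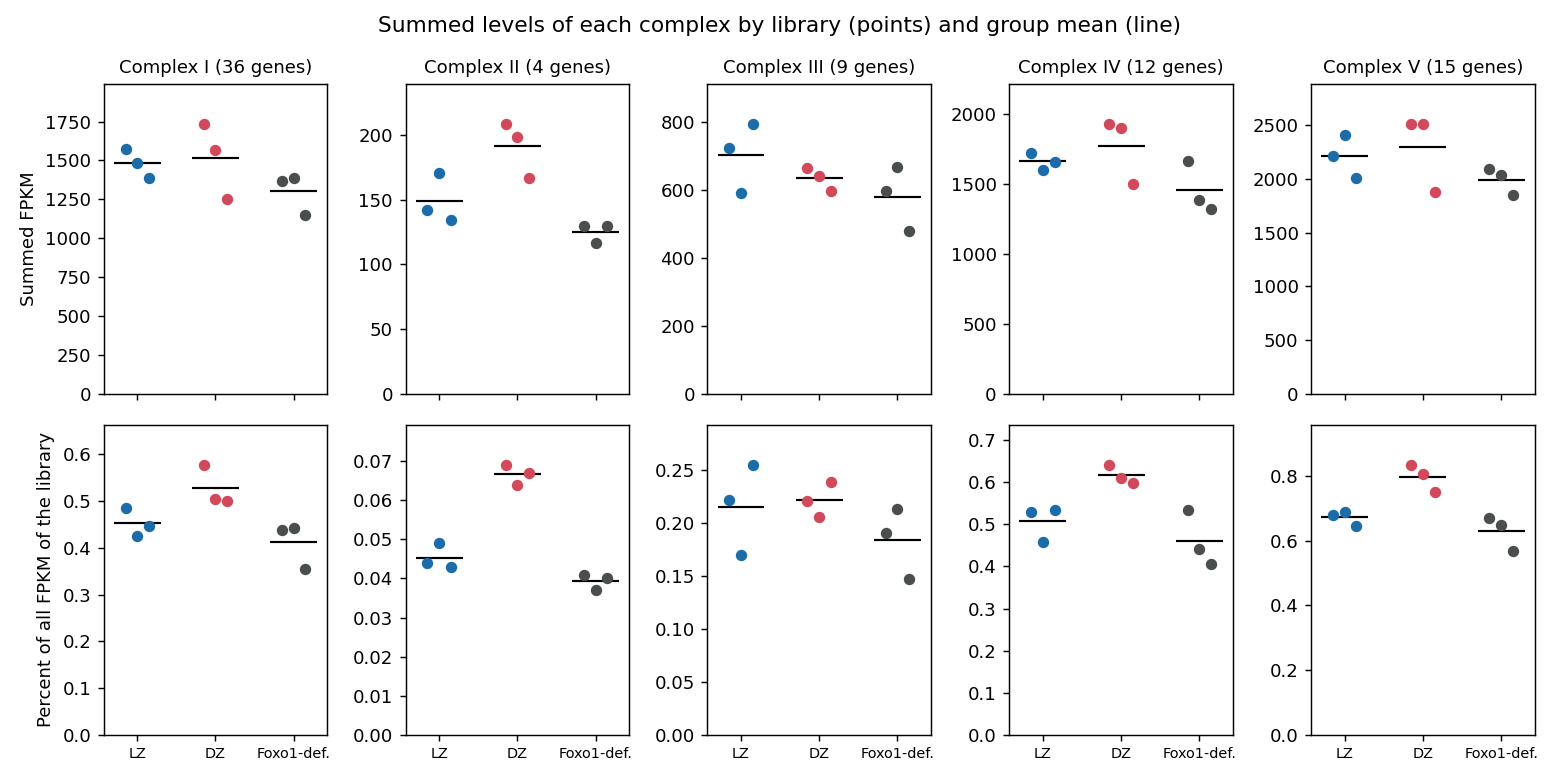
Summed FPKM of each complex by library (points) with the group mean (line), above, and the same sum as a percent of all FPKM in the library, below. On the percent scale all 3 DZ points lie above the other 6 in complexes I, II, IV and V, and in complex III the groups overlap.

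For the DZ minus LZ comparison, limma found 0 of 84 members past an adjusted p of 0.05, against 1.94% of all tested genes. At an unadjusted p under 0.05 there were 5 members, 2 higher and 3 lower in DZ, against 15.4% of all tested genes (3.72% higher and 11.7% lower). That count was 8 without LZ replicate 1, without LZ replicate 3 and without DZ replicate 1. It was 15 with median centring and 11 with total scaling. The share over all tested genes was not counted in these settings, so these counts are not a result about the members. All changes are differences of group means of log2(FPKM + 1), which understates the change of low genes. The members' median difference was 0.062, while the median over all tested genes was -0.15; 50 of 84 members were above 0, against 34.8% of all tested genes. By complex the median differences were 0.061 (I), 0.27 (II), -0.11 (III), 0.059 (IV) and 0.11 (V). When libraries were put on a common median, the all-gene median moved to 0.043, the members' to 0.251 and complex III's to 0.083, and the calls over all genes turned from 56 higher and 138 lower to 133 higher and 101 lower. Relative to all tested genes, the members' median stood 0.208 higher on the deposited values, 0.135 higher with quantile normalization and 0.137 higher without LZ replicate 2. The members' median itself was -0.036 without DZ replicate 1, 0.003 without LZ replicate 3, 0.032 without LZ replicate 2 and 0.154 without DZ replicate 3. Leaving out 1 library also turned the median of complex I (-0.049 without DZ replicate 1 and -0.023 without LZ replicate 3), complex III (0.014 without LZ replicate 3 and 0.01 without DZ replicate 2) and complex IV (-0.015 without LZ replicate 3). Complexes II and V kept their sign, at their lowest 0.133 and 0.02 without DZ replicate 2.

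For Foxo1-deficient cells against LZ, 0 of 84 members passed, against 1.56% of all tested genes. There were 10 members at an unadjusted p under 0.05, all lower in the Foxo1-deficient cells, against 13.4% of tested genes in all and 7.64% in that direction. The members' median difference was -0.23, against -0.02 for all tested genes, and 21 of 84 were above 0, against 48% of all. Medians by complex were -0.21 (I), -0.24 (II), -0.21 (III), -0.24 (IV) and -0.26 (V). With 1 library left out they stayed below 0 but moved, complex I between -0.284 (without Foxo1-deficient replicate 2) and -0.098 (without LZ replicate 1), and complex II between -0.377 and -0.113 (without Foxo1-deficient replicates 1 and 2). Complex III lay between -0.422 (without Foxo1-deficient replicate 2) and -0.157 (without LZ replicate 1), complex IV between -0.339 (without Foxo1-deficient replicate 1) and -0.132 (without LZ replicate 1), and complex V between -0.371 and -0.134 (without Foxo1-deficient replicates 1 and 3).

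For Foxo1-deficient cells against DZ, again 0 of 84 members passed, against 2.85% of all tested genes. There were 13 members at an unadjusted p under 0.05, all lower in the Foxo1-deficient cells, against 16.3% of tested genes in all and 4.78% in that direction. That count, in either direction, was 7, 5 and 22 without DZ replicates 1, 2 and 3. It was 27 with median centring and 25 with total scaling. The share over all tested genes was not counted in these settings, so these counts are not a result about the members. The members' median difference was -0.29, against 0.12 for all tested genes, and 20 of 84 were above 0, against 61.2% of all. By complex the medians were -0.20 (I), -0.64 (II), -0.36 (III), -0.29 (IV) and -0.31 (V). All stayed below 0 with any 1 library left out; complex I was -0.117 without DZ replicate 1 and -0.08 without Foxo1-deficient replicate 3, and complex III -0.215 without DZ replicate 2 and -0.157 without Foxo1-deficient replicate 3. Complex IV was -0.438 without Foxo1-deficient replicate 1. After median centring, 9 members passed, all lower: Sdhb, Sdhd, Ndufa9, Cox4i1, Cox7a2l, Atp5a1, Atp5b, Atp5f1 and Atp5o. In the same setting the calls over all genes went from 210 higher and 75 lower to 181 higher and 225 lower. The 3 comparisons share libraries, so their values stand side by side and are not independent.

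**Figure D3:**
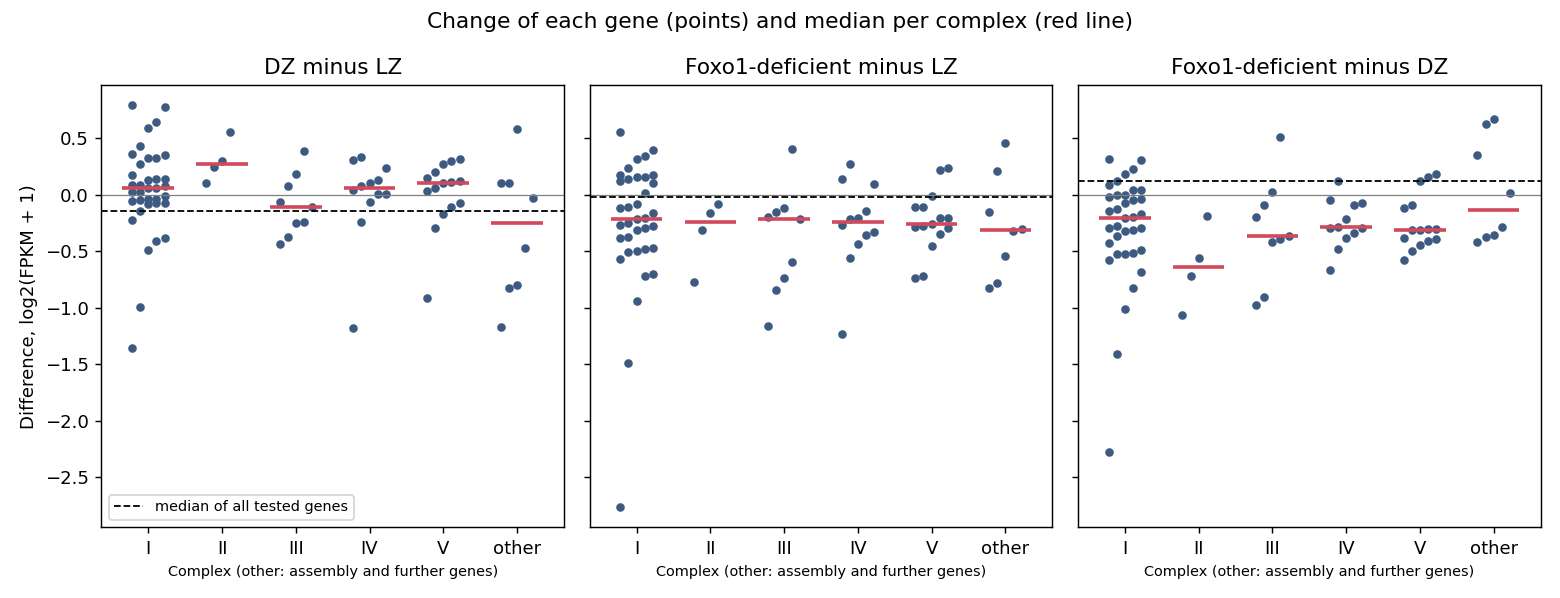
Difference of group means, log2(FPKM + 1), for each member (points) by complex in the 3 comparisons, with the median per complex (red line) and the median of all 10004 tested genes (dashed line). The complex medians lie above the dashed line in DZ minus LZ and below it in both comparisons of Foxo1-deficient cells.

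Library by library, each member's deviation from its own mean over the 9 libraries was taken, and the median over members was set against the median over all tested genes. This was 0.10, -0.11 and 0.02 in LZ, 0.20, 0.24 and 0.14 in DZ, and -0.13, -0.072 and -0.32 in the Foxo1-deficient libraries. All 3 DZ libraries were above the 6 others and Foxo1-deficient replicate 3 was lowest. Complex II reached 0.31, 0.47 and 0.30 in DZ and -0.37, -0.57 and -0.22 in the Foxo1-deficient libraries. Without Foxo1-deficient replicate 3, the members' median was -0.15 against LZ and -0.16 against DZ, and the all-gene medians were 0.017 and 0.16.

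**Figure D4:**
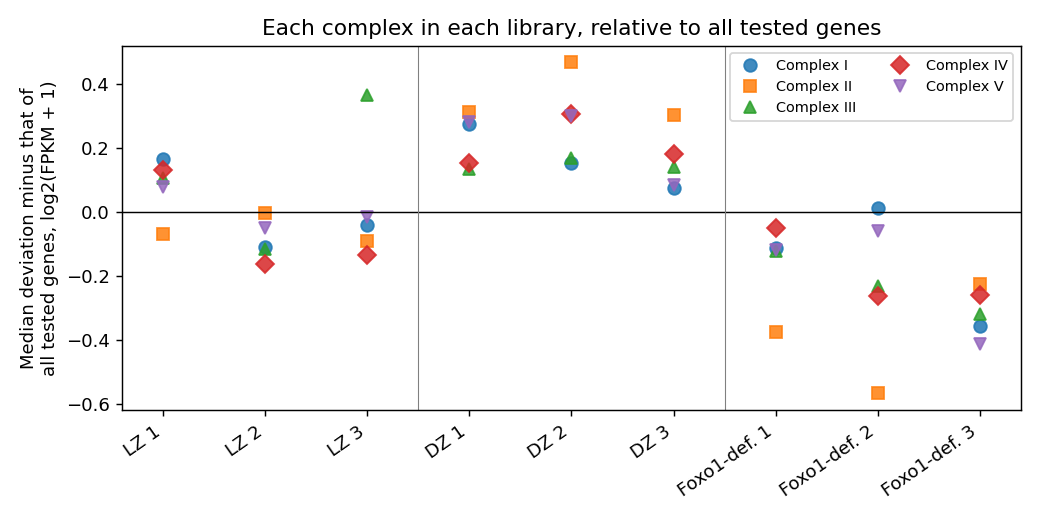
For each library, the median over a complex's genes of the deviation from the gene's mean over 9 libraries, minus the same median over all tested genes, in log2(FPKM + 1). In the 3 DZ libraries every complex is above 0, and complex II is the highest in each of them and the lowest in Foxo1-deficient replicates 1 and 2.

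Complex II, succinate dehydrogenase, is the enzyme that the respiratory chain shares with the tricarboxylic acid cycle. Sdha carries the flavin that oxidises succinate, Sdhb the iron-sulfur clusters that pass the electrons on, and Sdhc and Sdhd anchor the enzyme in the membrane. All 4 had a higher mean in DZ than in LZ and a lower mean in Foxo1-deficient cells than in either. Their summed FPKM was 141.8, 170.5 and 134.3 in LZ, 208.3, 198.3 and 166.7 in DZ, and 129.3, 116.5 and 129.8 in the Foxo1-deficient libraries. Every Foxo1-deficient library was below every wild-type one, and DZ and LZ overlapped through LZ replicate 2.

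Sdhb (chromosome 4, 140517186 to 140535107, mm9) was at 55.5, 74.7 and 52.9 FPKM in LZ, 104.8, 84.8 and 79.6 in DZ, and 54.7, 54.5 and 52.6 in the Foxo1-deficient libraries. Every DZ library was above all others, as in 1.82% of tested genes, and the Foxo1-deficient libraries lay within the LZ range or just under it. The difference was 0.56 ± 0.17 (SE) for DZ minus LZ (adjusted p = 0.146), -0.16 ± 0.17 for Foxo1-deficient minus LZ (adjusted p = 0.743) and -0.71 ± 0.17 for Foxo1-deficient minus DZ. The last had an adjusted p of 0.0504, and 0.00553 to 0.184 over 19 alternatives, 7 of which passed.

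Sdhd (chromosome 9, 50404445 to 50411954, mm9) was at 22.1, 32.4 and 28.1 FPKM in LZ, 32.1, 46.5 and 25.5 in DZ, and 20.5, 13.97 and 13.2 in the Foxo1-deficient libraries. The Foxo1-deficient libraries were below all 6 wild-type ones, as in 2.02% of tested genes, while LZ and DZ overlapped. Foxo1-deficient minus DZ was -1.07 ± 0.26 (adjusted p = 0.0519; 0.011 to 0.217 over 19 alternatives, 6 of which passed), and Foxo1-deficient minus LZ was -0.77 ± 0.26 (adjusted p = 0.203). Against DZ, only Ndufa1 and Ndufs5, which have libraries at or close to 0, had a larger difference than Sdhd among the members.

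Sdhc was at 15.8, 13.1 and 18.1 FPKM in LZ, 17.7, 22.8 and 16.0 in DZ, and 18.4, 7.10 and 14.03 in the Foxo1-deficient libraries. Only Foxo1-deficient replicate 2 stood clearly apart from the rest. Sdha was at 48.4, 50.3 and 35.3 FPKM in LZ, 53.6, 44.2 and 45.6 in DZ, and 35.6, 41.0 and 50.04 in the Foxo1-deficient libraries. Its groups overlapped throughout, and its 3 differences were 0.11, -0.076 and -0.18, each with an SE of 0.19.

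**Figure D5:**
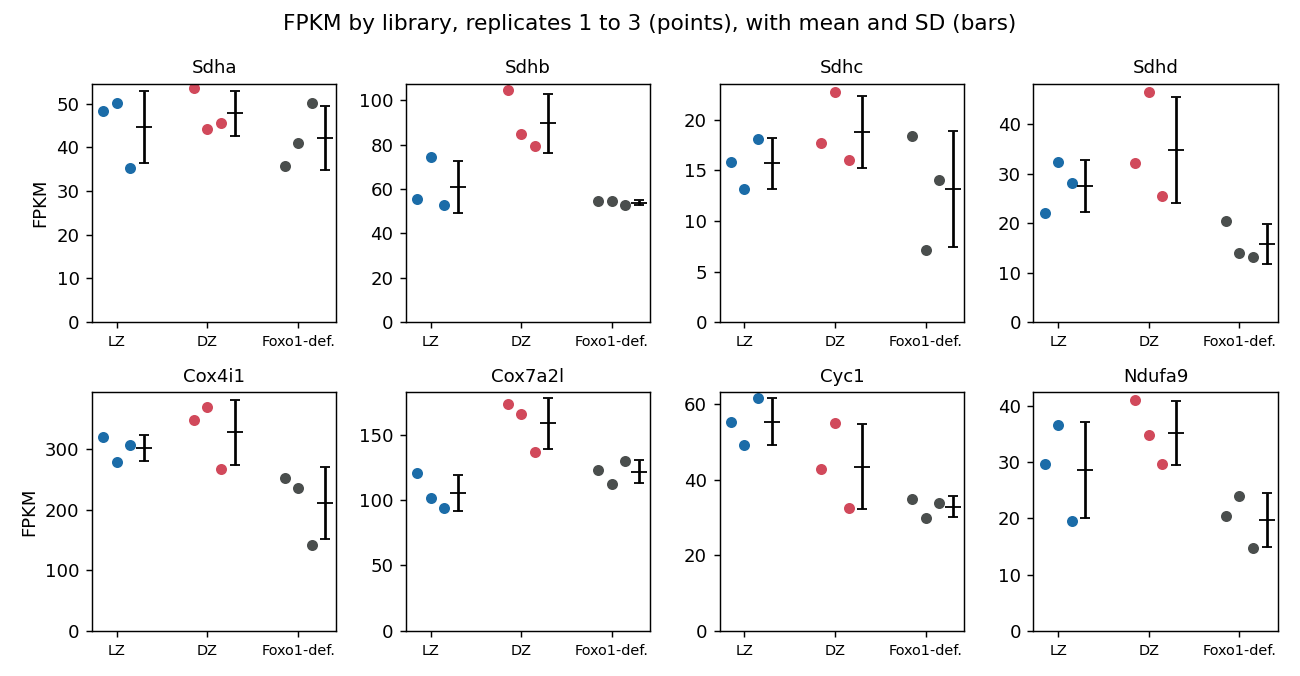
FPKM by library (points, replicates 1 to 3 from left to right) with mean and SD (bars) for the complex II genes and 4 others. Sdhb and Cox7a2l are highest in all 3 DZ libraries, Sdhd and Cox4i1 are lowest in all 3 Foxo1-deficient ones, and Sdha overlaps across groups.

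The promoters of Sdhb and Sdhd are shown because these 2 genes came nearest to the threshold against DZ. Both sequences are RefSeq's on GRCm38.p6, from 250 bases before to 50 bases after the gene's start, read 5′ to 3′ on the gene's strand: chr4:140961021-140961320, plus strand, for Sdhb and chr9:50603800-50604099, minus strand, for Sdhd. The capitals mark the letters CCGGAAG, the core bound by ETS factors such as GABP, or their reverse complement. GABP, also called nuclear respiratory factor 2, is known for binding promoters of respiratory chain genes.
Sdhb: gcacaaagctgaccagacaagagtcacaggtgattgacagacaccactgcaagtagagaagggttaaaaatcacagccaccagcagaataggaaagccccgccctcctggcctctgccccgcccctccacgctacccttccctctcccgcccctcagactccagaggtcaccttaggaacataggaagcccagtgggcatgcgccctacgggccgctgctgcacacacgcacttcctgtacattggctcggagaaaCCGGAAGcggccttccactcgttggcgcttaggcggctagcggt
Sdhd: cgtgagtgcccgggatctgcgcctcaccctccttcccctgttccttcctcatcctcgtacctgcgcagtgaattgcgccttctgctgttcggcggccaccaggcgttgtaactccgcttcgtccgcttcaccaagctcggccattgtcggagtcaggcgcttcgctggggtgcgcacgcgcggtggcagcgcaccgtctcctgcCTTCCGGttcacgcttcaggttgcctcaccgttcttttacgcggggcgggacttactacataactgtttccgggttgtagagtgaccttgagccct
The Sdhb match lies on the gene's strand just after the start, and the Sdhd match is on the other strand, before the start. Such letters are common. Of the members, 71 were matched to RefSeq promoters (by symbol, or by a synonym for Atp5f1, Atp5s and Atp5sl). In 17 of these 71 (23.9%) a promoter held CCGGAAG on either strand, as in 23.4% of 7947 other tested genes and 9.9% of all 27025 genes. A match describes the letters and shows no binding.

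In complex I, 7 members are core subunits, which carry the flavin and iron-sulfur clusters, and 29 are accessory subunits that surround them. The core subunits had median differences of -0.007 for DZ minus LZ, -0.11 for Foxo1-deficient minus LZ and -0.042 for Foxo1-deficient minus DZ, and the accessory subunits of 0.085, -0.25 and -0.30.

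Among accessory subunits, Ndufs6, which is needed at a late step of complex I assembly, had the highest positive difference for DZ minus LZ. It was at 24.6, 47.1 and 35.2 FPKM in LZ, 67.1, 87.1 and 37.8 in DZ, and 52.0, 13.3 and 36.4 in the Foxo1-deficient libraries, and DZ replicate 3 lay within the LZ range. DZ minus LZ was 0.80 ± 0.45 (adjusted p = 0.453) and Foxo1-deficient minus DZ was -1.01 ± 0.45 (adjusted p = 0.296). Ndufs4, an accessory subunit whose loss causes complex I deficiency, was at 15.4, 8.47 and 7.29 FPKM in LZ, 17.3, 15.5 and 13.6 in DZ, and 9.63, 18.8 and 18.4 in the Foxo1-deficient libraries. LZ replicate 1 reached the other groups, and DZ minus LZ was 0.59 ± 0.31 (adjusted p = 0.413). Ndufb6 spread from 6.16 to 55.4 FPKM within LZ alone, so its DZ minus LZ difference of 0.65 ± 0.60 says little.

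Ndufb4, an accessory subunit of the membrane arm, went the other way. It was at 72.4, 80.7 and 65.6 FPKM in LZ, 33.7, 33.2 and 42.2 in DZ, and 45.4, 63.1 and 18.0 in the Foxo1-deficient libraries. Every LZ library was above all 6 others, as in 4.84% of tested genes. DZ minus LZ was -0.99 ± 0.35 with an adjusted p of 0.208; it was 0.0346 with only the LZ and DZ libraries fitted and 0.0208 without Foxo1-deficient replicate 3, and 0.0208 to 0.651 over all 19 alternatives. Ndufa9, an accessory subunit next to the quinone site that was named after its values were seen, was at 29.6, 36.6 and 19.6 FPKM in LZ, 41.1, 34.9 and 29.7 in DZ, and 20.4, 24.0 and 14.7 in the Foxo1-deficient libraries. All DZ libraries were above all Foxo1-deficient ones (-0.82 ± 0.26, adjusted p = 0.13), while LZ overlapped both.

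Values at or close to 0 touch a pair of complex I genes. Ndufa1 was at 38.0, 21.4 and 49.2 FPKM in LZ, 81.9, 62.8 and 41.0 in DZ, and 44.3 and 42.6 in Foxo1-deficient replicates 1 and 2, and it was listed at 0 in replicate 3. That 1 library sets its place among the lowest differences. Ndufs5 was at 14.3 and 19.6 FPKM in LZ replicates 2 and 3 and at 17.7 in DZ replicate 1, and in the other 6 libraries it was listed above 0 but at 0.01 FPKM or less, with a lower interval bound of 0. Its locus (chromosome 4, 123389953 to 123395429, mm9) holds a second entry, BC002163, covering 99.5% of it, and the 2 entries share their fragments. BC002163 was at 24.4, 0.04 and 9.33 FPKM in LZ, 12.9, 17.6 and 29.9 in DZ, and 42.2, 18.5 and 19.0 in the Foxo1-deficient libraries. Summed, the 2 entries averaged 22.5 ± 7.49 FPKM in LZ, 26.04 ± 7.32 in DZ and 26.6 ± 13.6 in the Foxo1-deficient cells (SD, n = 3 each), and these groups overlapped. The Ndufs5 rows therefore say nothing firm about that gene. Overlapping entries also exist for 8 other members, none covering 90% of both loci.

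In complex III, the catalytic subunit Cyc1, or cytochrome c1, and the small ubiquinone-binding subunit Uqcrq had the smallest adjusted p-values against LZ; neither was named by the rule and both were chosen after their values were seen. Cyc1 was at 55.4, 49.3 and 61.6 FPKM in LZ, 42.8, 55.2 and 32.6 in DZ, and 34.96, 29.8 and 34.0 in the Foxo1-deficient libraries. Its Foxo1-deficient libraries were below all LZ ones, and DZ overlapped both groups. Foxo1-deficient minus LZ was -0.73 ± 0.20 (adjusted p = 0.112; 0.0629 to 0.305 over 19 alternatives, none of which passed). Uqcrq was at 97.5, 90.6 and 155.2 FPKM in LZ, 91.9, 79.6 and 75.9 in DZ, and 76.5, 50.7 and 59.8 in the Foxo1-deficient libraries, a difference of -0.84 ± 0.22 against LZ (adjusted p = 0.095). Here too only the Foxo1-deficient and LZ libraries did not overlap.

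Uqcrh, the hinge subunit that helps cytochrome c1 meet cytochrome c, was the complex III gene with a higher mean in Foxo1-deficient cells than in both zones. It was at 117.1, 90.5 and 172.7 FPKM in LZ, 136.6, 96.6 and 111.1 in DZ, and 131.3, 195.6 and 168.4 in the Foxo1-deficient libraries. The groups overlapped, and the differences were 0.41 ± 0.24 against LZ (adjusted p = 0.491) and 0.52 ± 0.24 against DZ (adjusted p = 0.313). Uqcr10 was at 159.5, 84.9 and 106.5 FPKM in LZ, 84.4, 108.9 and 92.6 in DZ, and 102.5, 68.9 and 17.5 in the Foxo1-deficient libraries. Its -1.16 ± 0.50 against LZ (adjusted p = 0.34) leans on replicate 3, which was also the low library for Uqcr11 at 9.31 FPKM, against 49.2 to 105.0 in the other 8. The core proteins Uqcrc1 and Uqcrc2 and the Rieske protein Uqcrfs1 had differences from -0.39 to 0.19 over the 3 comparisons.

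Complex IV is built around mitochondrially encoded catalytic subunits, and the members are its nuclear-encoded subunits. Cox4i1 was at 320.3, 278.8 and 306.7 FPKM in LZ, 348.0, 369.4 and 266.7 in DZ, and 252.7, 236.7 and 142.5 in the Foxo1-deficient libraries. The Foxo1-deficient libraries were below all wild-type ones, with replicate 3 the lowest, and the zones overlapped. Foxo1-deficient minus DZ was -0.67 ± 0.21 (adjusted p = 0.135) and Foxo1-deficient minus LZ was -0.56 ± 0.21 (adjusted p = 0.264); only median centring brought the first past the threshold, at 0.0372. Cox7b, at 33.0, 27.8 and 33.7 FPKM in the Foxo1-deficient libraries against 33.7 to 57.2 in the wild-type ones, also did not overlap, but its gap to the nearest LZ library was under 0.1 FPKM. Cox6b1, which faces the intermembrane space, was at 164.5, 157.0 and 239.8 FPKM in LZ, 257.0, 251.1 and 182.8 in DZ, and 236.0, 211.1 and 152.4 in the Foxo1-deficient libraries, with all groups overlapping.

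Ndufa4 overlapped across the groups, with differences of 0.14 ± 0.13 for Foxo1-deficient minus LZ and 0.13 ± 0.13 for Foxo1-deficient minus DZ. Its means were 168.0 ± 15.6 FPKM in LZ, 169.4 ± 15.7 in DZ and 184.8 ± 15.2 in the Foxo1-deficient cells. Cox7a2, the widely expressed isoform of subunit 7a, was at 39.6, 41.7 and 40.1 FPKM in LZ, 48.6, 54.6 and 51.2 in DZ, and 41.1, 49.6 and 57.9 in the Foxo1-deficient libraries. It was 1 of 4 members whose DZ libraries were all above LZ, with Cox7a2l, Ndufa11 and Sdhb, against 5.16% of tested genes, and its difference was 0.34 ± 0.16 (adjusted p = 0.345).

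Tissue and condition isoforms were at or near 0. Cox6a2 (heart and muscle), Cox7b2 and Cox8c (testis) and Ndufa4l2 (hypoxia-induced) were listed at 0 in all 9 libraries. Cox4i2, the isoform of lung and low oxygen, was at 4.78 FPKM in LZ replicate 3 and 1.85 in Foxo1-deficient replicate 2 and at 0 elsewhere. The muscle isoform Cox7a1 was at 5.77 FPKM in LZ replicate 3 and at 7.29 and 0.89 in DZ replicates 1 and 3, and Cox8b at 2.65 in LZ replicate 2. Those 7 genes missed the level filter. Cox6b2, the testis isoform, passed it with 5.76, 3.83 and 0 FPKM in LZ, 0, 1.80 and 0 in DZ, and 1.54, 0 and 0 in the Foxo1-deficient libraries, so it counts as a member at a level too low to compare. The matching general isoforms Cox4i1, Cox6a1, Cox6b1, Cox7a2, Cox7b, Cox8a and Ndufa4 had means from 39.9 to 280.2 FPKM.

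In complex V, the catalytic head and central stalk (Atp5a1, Atp5b, Atp5c1, Atp5d and Atp5e) all had lower means in Foxo1-deficient cells than in either zone, from -0.11 to -0.74 against LZ and from -0.31 to -0.50 against DZ. Atp5b, which holds the catalytic sites, was at 230.1, 260.9 and 200.2 FPKM in LZ, 301.3, 290.1 and 243.4 in DZ, and 243.7, 234.4 and 169.1 in the Foxo1-deficient libraries. DZ and Foxo1-deficient libraries overlapped by less than 1 FPKM, and their difference was -0.38 ± 0.17 (adjusted p = 0.30). Atp5e was at 244.9, 254.5 and 272.3 FPKM in LZ, 273.7, 302.4 and 222.1 in DZ, and 247.7, 249.8 and 154.2 in the Foxo1-deficient libraries, with replicate 3 alone well below the rest.

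Subunit c forms the ring that protons turn, and 3 genes, Atp5g1, Atp5g2 and Atp5g3, encode the same mature protein with different import sequences. Atp5g1 (chromosome 11, 95934107 to 95937008, mm9) was at 73.5, 58.6 and 51.3 FPKM in LZ, 41.0, 35.3 and 22.0 in DZ, and 23.7, 44.8 and 44.7 in the Foxo1-deficient libraries. Every LZ library was above all others. DZ minus LZ was -0.91 ± 0.29 (adjusted p = 0.161) and Foxo1-deficient minus LZ was -0.72 ± 0.29 (adjusted p = 0.293). Atp5g3 was at 188.6, 178.6 and 165.5 FPKM in LZ, 237.1, 237.6 and 184.0 in DZ, and 156.0, 200.0 and 176.2 in the Foxo1-deficient libraries, a DZ minus LZ difference of 0.30 ± 0.15 (adjusted p = 0.381). Atp5g2 was at 171.1, 161.7 and 181.3 FPKM in LZ, 179.1, 165.0 and 134.7 in DZ, and 171.7, 199.1 and 95.9 in the Foxo1-deficient libraries, with no separation. The sum of the 3 genes was 410.0 ± 19.96 FPKM in LZ, 411.9 ± 62.45 in DZ and 370.7 ± 65.7 in the Foxo1-deficient cells (SD, n = 3 each), so Atp5g1 was the smallest contributor and the sum did not separate the groups. A difference between these genes in their response was not tested.

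In the peripheral stalk, which holds the head still, Atp5o was at 117.0, 103.6 and 127.7 FPKM in LZ, 118.2, 125.9 and 90.3 in DZ, and 87.9, 85.3 and 79.5 in the Foxo1-deficient libraries. Its Foxo1-deficient libraries were below all wild-type ones; the differences were -0.45 ± 0.16 against LZ (adjusted p = 0.218) and -0.39 ± 0.16 against DZ (adjusted p = 0.248). The stalk gene Atp5h had its highest mean in the Foxo1-deficient cells, at 169.2 ± 32.8 FPKM against 144.5 ± 20.01 in LZ and 152.3 ± 33.8 in DZ. Atp5k could not be compared: it ran from 55.5 to 339.4 FPKM within LZ and from 92.5 to 379.8 within the Foxo1-deficient cells.

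Counting members whose groups did not overlap, 12 had all Foxo1-deficient libraries below all LZ ones, against 9.37% of tested genes, and 12 had them below all DZ ones, against 5.78%. The first were Atp5d, Atp5g1, Atp5o, Cox4i1, Cox7b, Cyc1, Ndufaf4, Ndufb4, Ndufs5, Ndufv1, Sdhd and Uqcrq, and the second Atp5j, Atp5o, Cox4i1, Cox7a2l, Cox7b, Cox8a, Ndufa3, Ndufa9, Ndufc1, Ndufs5, Sdhb and Sdhd. They make 14.3% of the 84 members in each case. Ndufs5 enters both counts only through values close to 0, and without it each count is 11 of 83 (13.3%). In the other direction there were 0 members in both comparisons, against 8.12% and 17.3% of tested genes. LZ libraries were all above DZ ones in 3 members, Atp5g1, Ndufaf4 and Ndufb4, against 17.1% of tested genes. Each named gene has only 3 libraries a group, and the median spread between replicates of the 80 members whose FPKM and lower interval bound were above 0 in every library was a CV of 21.4%, against 8.7% from counting error at a median of 122 implied fragments.

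Of the genes outside the complexes, Cox7a2l, which joins complexes III and IV into supercomplexes, had the smallest adjusted p for DZ minus LZ. It was at 121.1, 101.7 and 94.0 FPKM in LZ, 173.5, 165.7 and 136.6 in DZ, and 122.8, 112.3 and 130.1 in the Foxo1-deficient libraries. Every DZ library was above all 6 others, and the Foxo1-deficient libraries overlapped LZ. DZ minus LZ was 0.58 ± 0.15 (adjusted p = 0.0847; 0.0115 to 0.238 over 19 alternatives, 4 of which passed), and Foxo1-deficient minus DZ was -0.37 ± 0.15 (adjusted p = 0.241).

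The complex I assembly factors were low, and 4 of 5 had a DZ minus LZ difference below 0 in log2(FPKM + 1), with a median of -0.47. Over all tested genes that median was -0.15, and only 34.8% were above 0. Ndufaf3 was the exception at 0.11, though its mean FPKM was 6.90 in LZ and 5.74 in DZ. Ndufaf2 was at 24.0, 10.4 and 8.87 FPKM in LZ, 11.6, 2.96 and 3.95 in DZ, and 8.32, 5.82 and 13.2 in the Foxo1-deficient libraries; DZ replicate 1 lay within the LZ range, and DZ minus LZ was -1.17 ± 0.48 (adjusted p = 0.276). Ndufaf4, which had every LZ library above all others, was at 3.81, 6.24 and 3.60 FPKM in LZ, 3.57, 3.11 and 2.19 in DZ, and 1.85, 1.70 and 2.73 in the Foxo1-deficient libraries. LZ replicate 3 and DZ replicate 1 differed by only 0.03 FPKM in this gene. Ndufaf3 ranged from 2.12 to 15.4 FPKM with both extremes outside DZ, and Atp5s from 0.24 to 4.40 FPKM, so neither supports a comparison.

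Genes that work with the chain were tallied from lists drawn up with the members. Of 18 tested electron carriers, coenzyme Q enzymes, nucleotide and phosphate carriers and the ATPase inhibitor, 1 fell in DZ against LZ: Coq7, a hydroxylase of coenzyme Q synthesis. Of all tested genes, 1.94% passed in that comparison, and 1.56% and 2.85% in Foxo1-deficient cells against LZ and DZ. Coq7 was at 13.1, 13.9 and 14.5 FPKM in LZ, 5.52, 2.35 and 4.33 in DZ, and 14.7, 12.3 and 5.40 in the Foxo1-deficient libraries, a DZ minus LZ difference of -1.60 ± 0.35 (adjusted p = 0.0459). The call held in 4 of 19 alternatives, with adjusted p-values from 0.0153 to 0.335, and was lost when any 1 LZ or DZ library was left out. None of the 18 passed in the comparisons of Foxo1-deficient cells. None of 26 tested assembly factors outside the prefixes, 17 tricarboxylic acid cycle enzymes and 20 regulators of transcription and mitochondrial DNA passed in any comparison. The tricarboxylic acid cycle list had medians of -0.034 for DZ minus LZ, -0.16 for Foxo1-deficient minus LZ and -0.19 for Foxo1-deficient minus DZ, with 4 of 17 genes above 0 in each of the last 2, and the regulators had -0.096, 0.011 and 0.26. Over all tested genes the medians were -0.15, -0.02 and 0.12, and 48% and 61.2% of genes were above 0 in the last 2 comparisons. No entry matched the 13 subunits encoded by mitochondrial DNA, which were not analysed here. Myc, a regulator of cell growth that is induced in selected light zone cells, was at 21.4, 23.8 and 25.9 FPKM in LZ, 6.72, 8.06 and 4.35 in DZ, and 11.4, 12.8 and 8.38 in the Foxo1-deficient libraries, and it fell by 1.77 in DZ against LZ (SE 0.25, adjusted p = 0.00641).

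Other letters were searched in the promoters of the same 71 genes, in windows of 300 bases on both strands. A gene counted if any of its windows held the letters. The palindrome bound by NRF1 stood in 6 genes (8.5%), against 2.6% of 7947 other tested genes and 1.1% of all 27025 genes. AAGATGGCG, the YY1 core, stood in 8 (11.3%), against 4.2% and 1.6%. GTAAACA, the letters that FOXO factors bind, stood in 3 (4.2%), against 3.1% and 4.1%. The E-box CACGTG that Myc binds stood in 7 (9.9%), against 12.3% and 8.1%. The promoter of Atp5g2, at chr15:102670998-102671297 on the minus strand of GRCm38.p6, is shown as an example of the NRF1 letters, in capitals, in a gene whose groups overlapped.
Atp5g2: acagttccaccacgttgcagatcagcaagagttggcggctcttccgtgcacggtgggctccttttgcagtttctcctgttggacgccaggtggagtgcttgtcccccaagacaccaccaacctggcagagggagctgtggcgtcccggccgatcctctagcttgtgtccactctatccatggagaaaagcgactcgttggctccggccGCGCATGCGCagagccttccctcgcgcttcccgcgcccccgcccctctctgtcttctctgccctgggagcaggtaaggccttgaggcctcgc
No match says only that these letters are missing from the window, and a match is no evidence of binding in these cells.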

How the data were processed

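Per the file headers, each library has its own Cufflinks gene table, in which the authors gave FPKM with a lower and an upper confidence bound. The mm9 build, Cufflinks 2.1.1 and TopHat2 2.0.8 are named in the submitters' processing notes; the scaling total, bias correction and masks are not given in the sources used here. Per the labels' protocols, libraries came from total RNA of sorted cells with an NEBNext Ultra kit.

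Each table held 23700 entries; 716 entries of 250 repeated symbols and 7 genes with a failed estimate were left out, and of the 22977 left, 10004 that reached an FPKM of 1 in 3 or more of 9 libraries were tested. limma 3.58.1 (R 4.3.3) with an intensity trend was fitted to log2(FPKM + 1) on 3 group means, two-sided, with Benjamini-Hochberg adjustment over all tested genes and a threshold of 0.05. The script was tested on simulated data. FPKM are no counts. Fragments were implied from the ratio of interval bounds and cover counting error only. They served for library depth, the choice of well-covered genes, the counting error and the precision weights. The main test did not use them.

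The members and lists were chosen with earlier results of these data known. Genes named by rule are any member past the threshold, the 4 highest and 4 lowest differences per comparison, the 2 highest levels of complexes I, III, IV and V, complex II, subunit c and tissue isoforms; other members named were chosen after their values were seen. Members were assigned to complexes by their known protein. Lengths come from GENCODE and promoters from RefSeq, both on GRCm38 and matched by symbol or, where that failed, by RefSeq synonym; gene coordinates are those of the files. No protein sequences were used here. Alternatives were a pseudocount of 0.1, no filter, 3 other scalings, only the compared groups, a replicate block, precision weights, each library left out and, chosen after seeing the data, interval centres and genes with no library at 0.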

Additional observations from a re-analysis of the deposited data

How the results depend on the processing

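In Foxo1-deficient cells against LZ, 0 members passed in every alternative run. In DZ minus LZ, 2 passed with median centring, 1 with quantile normalization, 2 with total scaling, 1 with only the compared groups and 1 with precision weights. Over all 10004 tested genes, 234, 208, 199, 122 and 410 passed in these settings, in the same order. In Foxo1-deficient minus DZ, 9 passed with median centring, 2 with quantile normalization, 3 with total scaling, 1 with precision weights, 2 with interval centres and 2 among genes with no library at 0. The calls over all genes there were 406, 360, 328, 439 and 304 of 10004, and 256 of 8855 genes with no library at 0. Leaving out 1 library gave 0 to 1 in DZ minus LZ and in Foxo1-deficient minus DZ. Calls over all 10004 genes then ran from 72 to 210 and from 127 to 246. The cause was not tested.

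The members' median for DZ minus LZ was 0.251 with median centring and 0.26 with total scaling, and that for Foxo1-deficient minus DZ was -0.467 with centring. In DZ minus LZ, complexes I, II and IV had medians of 0.25, 0.461 and 0.248 with centring and 0.258, 0.475 and 0.257 with total scaling, and the other genes had -0.035 with quantile normalization. In Foxo1-deficient minus DZ, complexes I, II and IV had -0.38, -0.815 and -0.464 with centring, and complexes I and IV -0.353 and -0.436 with total scaling.

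With 1 library left out, the members' median ran from -0.036 to 0.154 (DZ minus LZ), -0.324 to -0.148 (Foxo1-deficient minus LZ) and -0.387 to -0.16 (Foxo1-deficient minus DZ). In the last, complex II ran from -0.778 to -0.461 and complex IV from -0.438 to -0.212; the other genes against LZ ran from -0.524 to -0.099.

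Whether replicate numbers pair the samples was not settled. Deviations of same-numbered libraries correlated at -0.067 to 0.075 (9 pairs) and of others at -0.112 to 0.05 (18 pairs). These deviations are from means of only 3 libraries, so the check cannot exclude pairing. With the replicate block, 0 members passed in each comparison and the medians stayed at 0.062, -0.231 and -0.288.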
